A study of Mus musculus with 28 samples.

Results

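Libraries of mouse striatum that were rich in Ttr, the transcript of transthyretin, were compared with libraries that were poor in it, to ask which other transcripts rose with Ttr from one dissection to the next and which did not. All 28 libraries of the study were ranked by their deposited Ttr FPKM (a level scaled for transcript length and library depth), and the 8 highest and the 8 lowest were taken, which is 16 of 28 libraries. The other 12 libraries were in neither set and are called the middle libraries. The sets were chosen by these measured Ttr values, so Ttr's own values are given as a description, without a test, and Ttr was left out of all results.

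Each library was striatum of 1 C57BL/6J mouse, and the study compared 16 mice given haloperidol, an antipsychotic that blocks dopamine receptors, with 12 given placebo, in 2 batches. Dose, duration, age and sex were not given in the sources used here. The Ttr-rich set held 7 haloperidol and 1 placebo libraries, 4 of batch 1 and 4 of batch 2. The Ttr-poor set held 4 haloperidol and 4 placebo libraries, 5 of batch 1 and 3 of batch 2. The middle libraries were 5 haloperidol and 7 placebo. Each library is named by its treatment, with its mouse number serving as replicate number.

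The choroid plexus is a sheet of secretory epithelium over fenestrated vessels that hangs in the brain ventricles and makes cerebrospinal fluid. The lateral ventricle borders the striatum, and its choroid plexus is not striatal tissue. Its epithelium is known for transthyretin, the carrier of thyroid hormone and retinol-binding protein, and for the transporters, channels and secreted proteins described here.

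Ttr ranged from 16.3 FPKM in placebo replicate 4 to 8469 FPKM in haloperidol replicate 19, a 519-fold span, and reached 1.53% of the FPKM sum of a library. In the Ttr-rich set the lowest, median and highest values were 2764, 3996 and 8469 FPKM, and in the Ttr-poor set 16.3, 255 and 1035 FPKM. At the upper border, haloperidol replicate 7 was inside the Ttr-rich set with 2764 FPKM and placebo replicate 22 was outside it with 2219 FPKM. At the lower border, haloperidol replicate 33 was inside the Ttr-poor set with 1035 FPKM and haloperidol replicate 21 was outside it with 1481 FPKM. The ratio of the set medians was 40.1 in batch 1 and 10.6 in batch 2. The deposited Ttr FPKM lay above its own Cufflinks interval in 27 of 28 libraries, and ranking by the middle of that interval gave the same 16 libraries.

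**Figure D1:**
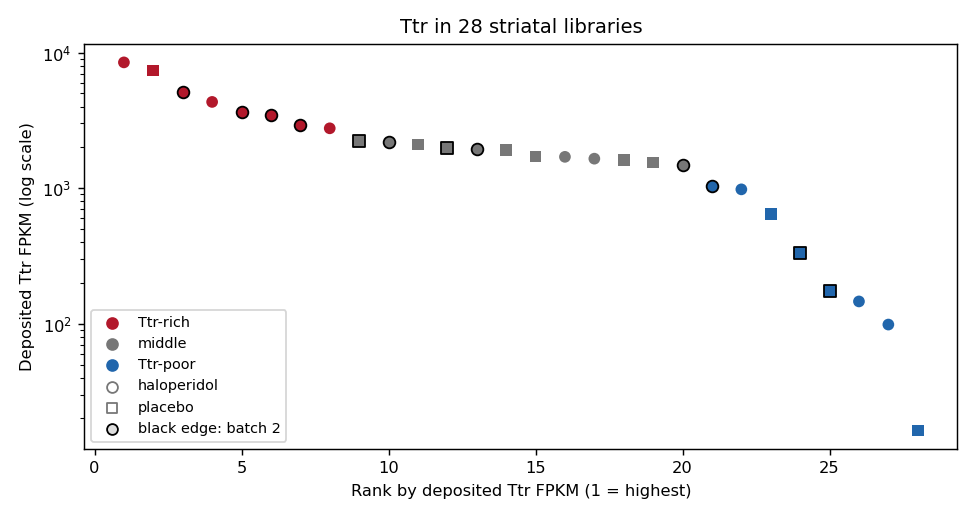
Deposited Ttr FPKM (log axis) of 28 libraries against their rank, coloured by set, with circles for haloperidol, squares for placebo and black edges for batch 2. The 12 middle libraries lie between 1481 and 2219 FPKM, and the 8 Ttr-poor libraries spread from 1035 down to 16.3 FPKM.

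Between the 2 sets, RIN (RNA integrity number, from the labels) averaged 7.83 ± 0.372 (SD, n = 8) in Ttr-rich and 7.81 ± 0.549 (SD, n = 8) in Ttr-poor libraries (exact permutation p = 0.954, 2-sided). The log2 of the FPKM sum averaged 18.93 ± 0.178 and 18.84 ± 0.204 (exact permutation p = 0.396). The log2 of relative depth differed by 0.018 (exact permutation p = 0.948). Within each batch these 3 differences had an exact permutation p between 0.343 and 0.643. The middle libraries had a median RIN of 8.225, against 7.775 in Ttr-rich and 7.75 in Ttr-poor libraries. Their median FPKM sum was 416465, against 513262 and 468425. These differences from the middle libraries were not tested. FPKM sums ranged from 380952 to 575171 and relative depth from 0.433 to 1.73 over the 28 libraries; read counts were not used here and absolute depth is unknown.

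Of 12759 genes that averaged 1 FPKM or more, 43 were higher in the Ttr-rich libraries (0.337% of those tested) and 1 was lower (0.00784%), by limma with batch and treatment as terms and a Benjamini-Hochberg adjusted p under 0.05. The 43 differences ran from 0.44 to 3.65 on the log2(scaled FPKM + 0.5) scale, with a median of 1.55, beside a median of -0.01 over all genes tested. This scale understates the change of low genes, and 18 of the 43 had a Ttr-poor mean under 1 scaled FPKM. That held for 157 of the 12759 genes tested. The minimum was set on the mean of all 28 libraries. A gene this low in the Ttr-poor set passed it through higher values elsewhere, which favours a rise. Without the minimum, limma called 59 of 19239 genes higher and 3 lower. The 8 and 8 values did not overlap for 38 of the 43, where 47 of all tested genes (0.368%) had every Ttr-rich value above every Ttr-poor value and 0 had the opposite. The calls came from these same values, so the lack of overlap is no separate test of them. In the middle libraries, which took no part in this fit, the mean lay between the 2 set means for 43 of 43 called genes. The called genes were chosen for a wide gap between the set means, so a middle mean inside it was likely in advance. The 12.9% found over all genes tested is no baseline for this, because their 2 set means mostly lay close together. In bulk tissue, fewer cells of a type and less RNA per cell cannot be told apart.

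The calls depended on placebo replicate 2, the only placebo library in the Ttr-rich set. Without it limma called 0 genes, and 263 (2.06%) had an unadjusted p under 0.05. All 43 differences stayed above 0 in that fit, between 0.35 and 3.64, and the smallest adjusted p was 0.0903, shared by 12 of them. With haloperidol libraries alone limma also called 0 genes (244, or 1.91%, at an unadjusted p under 0.05), with a median of 1.10 over the choroid plexus genes listed in the next paragraph. Without haloperidol replicate 5, one of the Ttr-poor libraries, 27 genes (0.212%) were called. Within batch 1 limma called 0 genes (520, or 4.08%, at an unadjusted p under 0.05). Within batch 2 it called 1 (0.00784%), which was lower (89, or 0.698%, at an unadjusted p under 0.05). All 43 differences were above 0 in both batches, and their median was 1.70 within batch 1 against 0.94 within batch 2.

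Lists of choroid plexus genes held 28 of the 43 called genes. They name 66 genes, of which 52 were tested and 14 were under the minimum FPKM. Of the 52, 28 rose, 0 fell and 24 did not pass, with 49 above 0 (48.3% of all genes tested were above 0) and a median log2 difference of 1.38. A Ttr-poor mean under 1 scaled FPKM held for 15 of the 52, beside 157 of all 12759. Such members passed the minimum through higher values elsewhere, which favours a rise, so the 48.3% is no matched baseline. Of the 14 under the minimum, 13 had a higher mean in the Ttr-rich set, and Tmem72, Slc39a4 and Cldn1 had values that did not overlap. Their lowest Ttr-rich values were 0.714, 0.809 and 0.782 scaled FPKM, against highest Ttr-poor values of 0.619, 0.665 and 0.704. These shares were not taken over all genes under the minimum, so whether they are unusual at such low values is not known. Summed over the 66 genes, the level ran from 1028 to 1702 scaled FPKM in Ttr-rich and from 653 to 842 in Ttr-poor libraries. None of the 15 other called genes was on any of the 20 other lists. All these lists were made with earlier results of these data known. How the calls divide between them is therefore a description and no separate test.

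Among the markers of choroid plexus epithelium other than Ttr, 3 of 4 rose. Folr1, the folate receptor that carries folate into cerebrospinal fluid, had a lowest, median and highest level of 15.6, 26.03 and 54.7 scaled FPKM in Ttr-rich libraries, 8.42, 11.8 and 14.6 in middle libraries and 0.551, 3.72 and 7.70 in Ttr-poor libraries. No 2 of the 3 sets overlapped. Its means of 30.3 ± 14.3 and 3.71 ± 2.56 (SD, n = 8 each) gave a log2 difference of 2.87 (SE 0.45, adjusted p = 0.00908). Kcne2, a potassium channel subunit, measured 4.204, 8.08 and 12.3 in the Ttr-rich and 0.0678, 1.096 and 2.80 in the Ttr-poor libraries, again without overlap (log2 difference 2.49, adjusted p = 0.00908). Clic6, a chloride channel protein, measured 9.15, 15.9 and 22.1 against 2.50, 4.19 and 9.30, so that 1 Ttr-poor library, haloperidol replicate 17, lay just above the lowest Ttr-rich value (log2 difference 1.503, adjusted p = 0.0122). Kl, which encodes klotho, a co-receptor for a phosphate-regulating hormone, measured 4.30, 9.23 and 18.3 against 0.266, 1.33 and 5.38, and did not pass (log2 difference 2.15, SE 0.46, adjusted p = 0.0756). Its highest Ttr-poor value, in haloperidol replicate 17, lay above 3 of the 8 Ttr-rich values.

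**Figure D2:**
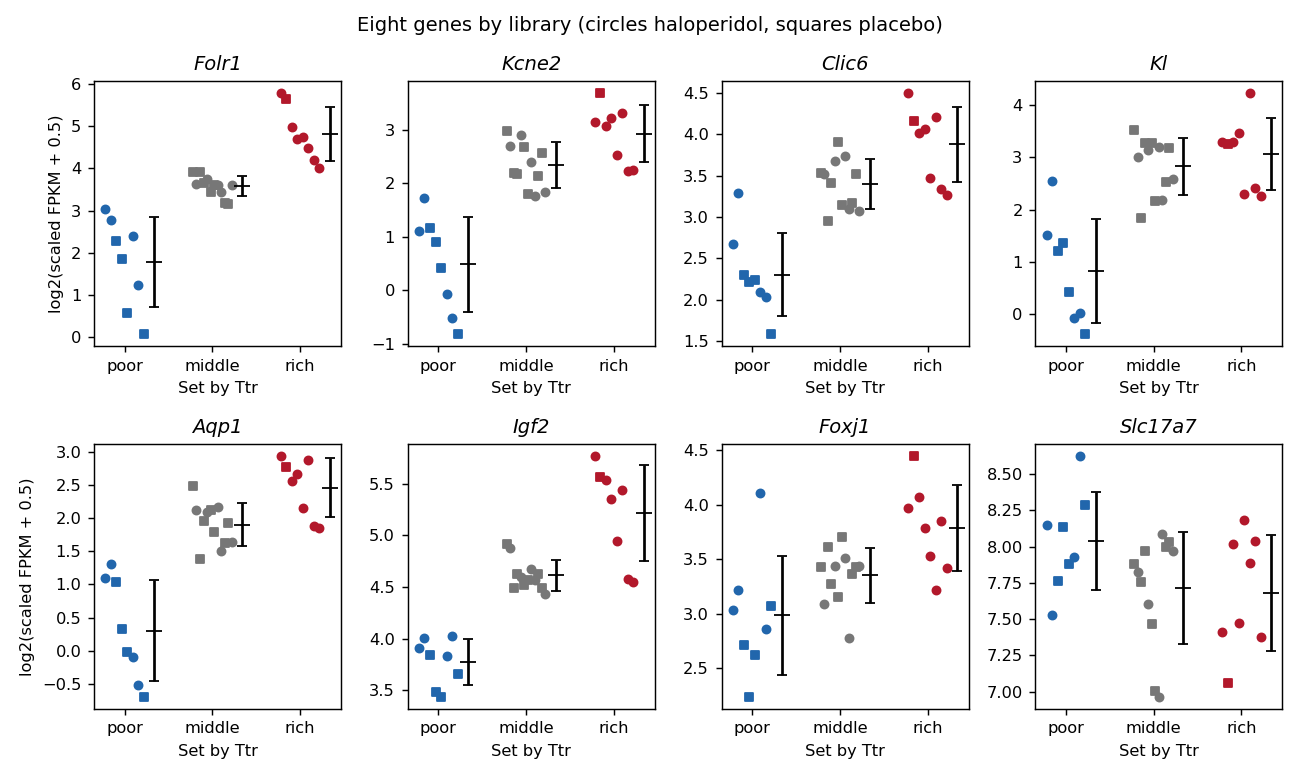
log2(scaled FPKM + 0.5) of 8 genes in each library of the Ttr-poor (blue), middle (grey) and Ttr-rich (red) sets, with the mean and SD of each set in black. Poor and rich values do not overlap for Folr1, Kcne2, Aqp1 and Igf2, overlap at 1 Ttr-poor library for Clic6 and Kl, and overlap widely for Foxj1 and Slc17a7.

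Genes of ion, water and acid-base transport rose in 9 of 14 tested members. Kcnj13, an inward-rectifier potassium channel of the apical membrane, measured 7.67, 14.97 and 22.1 scaled FPKM in Ttr-rich and 0.354, 1.15 and 4.54 in Ttr-poor libraries (log2 difference 2.94, adjusted p = 0.00761). Its 12 middle values, from 5.62 to 11.7, lay above every Ttr-poor value. Aqp1, the water channel of the same membrane, averaged 5.23 ± 1.62 against 0.894 ± 0.721 (SD, n = 8 each; log2 difference 2.12, adjusted p = 0.00908). The bicarbonate transporter Slc4a5 averaged 2.71 ± 1.16 against 0.398 ± 0.397 and was listed at 0 in placebo replicate 4 (log2 difference 1.85, adjusted p = 0.0185). The osmotically gated channel Trpv4 and the calmodulin-like gene Calml4 rose by 1.49 and 2.08 on the log2 scale.

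Within that list the anion exchanger Slc4a2 rose by only 0.73 (adjusted p = 0.0115), from 9.57 ± 1.46 to 15.9 ± 2.48 scaled FPKM (SD, n = 8 each). The carbonic anhydrase gene Car14 rose by 0.62 (adjusted p = 0.0198), and it shares exon bases with Aph1a on the other strand, so its reads are uncertain. In placebo replicate 4, the library lowest in Ttr, Slc4a2 still stood at 49.1% and Car14 at 68.0% of their Ttr-rich mean, against 2.47% for Kcnj13 and 0.899% for Kcne2. The members that did not pass included Trpm3, a steroid-gated cation channel (5.59 ± 2.38 against 1.95 ± 1.75, log2 difference 1.49, adjusted p = 0.260), and Car12 (log2 difference 0.53, adjusted p = 0.698). Others were nearly level. Atp1b2, a subunit of the sodium pump, averaged 149 ± 12.5 against 136 ± 15.3 (log2 difference 0.09, adjusted p = 0.917). The bicarbonate transporter gene Slc4a10 was 1 of the 3 choroid members below 0, with 6.95, 11.9 and 33.6 scaled FPKM at the lowest, median and highest of the Ttr-rich and 8.38, 14.4 and 35.6 of the Ttr-poor libraries (log2 difference -0.30, adjusted p = 0.917). It was above 0 in batch 2, at 0.20.

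Receptors and carriers rose in 6 of 13 tested members, with Folr1 highest. The metalloreductase gene Steap1 measured 2.36, 4.39 and 8.17 scaled FPKM in Ttr-rich and 0.200, 0.473 and 2.20 in Ttr-poor libraries (log2 difference 2.10, adjusted p = 0.0109). Abca4, a retinoid-transporting ABC protein, averaged 1.75 ± 0.552 against 0.385 ± 0.150 (SD, n = 8 each; log2 difference 1.26, adjusted p = 0.00513). The sulfate carrier Slc13a4, the monocarboxylate carrier Slc16a8 and the monoamine carrier Slc29a4 rose by 1.49, 1.52 and 1.12 on the log2 scale. Prlr, the prolactin receptor, did not pass (1.73 ± 0.713 against 0.460 ± 0.413, log2 difference 1.21, adjusted p = 0.0977). Lrp8, a lipoprotein receptor of the reelin pathway, was below 0 (5.08 ± 1.02 against 5.45 ± 0.947, log2 difference -0.11, adjusted p = 0.917), and above 0 in batch 2, at 0.20.

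Upstream sequence is shown for 4 genes that rose together, because the called genes could be searched for letters bound by factors known in this epithelium. RefSeq promoters (GRCm38.p6) held an entry for 34 of the 43 called genes. Each run is the 250 bases before the start site, 5′ to 3′ on the gene's strand, and capitals mark a match on either strand to TAATCC, letters of the Otx type of homeodomain site, or to GTTGCC, a half-site of RFX factors. The regions are chr1:87394730-87394979 on the minus strand for Kcnj13, and chr16:92292139-92292388, chr6:55336049-55336298 and chr3:122044210-122044459 on the plus strand for Kcne2, Aqp1 and Abca4.
Kcnj13: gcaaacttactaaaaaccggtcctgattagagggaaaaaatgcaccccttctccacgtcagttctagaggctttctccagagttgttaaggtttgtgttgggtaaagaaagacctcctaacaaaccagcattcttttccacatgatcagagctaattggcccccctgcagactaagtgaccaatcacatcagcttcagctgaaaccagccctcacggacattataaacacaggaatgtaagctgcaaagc
Kcne2: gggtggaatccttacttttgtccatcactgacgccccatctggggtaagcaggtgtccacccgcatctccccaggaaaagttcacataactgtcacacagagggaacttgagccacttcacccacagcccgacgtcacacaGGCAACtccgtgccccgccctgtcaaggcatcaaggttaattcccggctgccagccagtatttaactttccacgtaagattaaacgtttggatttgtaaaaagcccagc
Aqp1: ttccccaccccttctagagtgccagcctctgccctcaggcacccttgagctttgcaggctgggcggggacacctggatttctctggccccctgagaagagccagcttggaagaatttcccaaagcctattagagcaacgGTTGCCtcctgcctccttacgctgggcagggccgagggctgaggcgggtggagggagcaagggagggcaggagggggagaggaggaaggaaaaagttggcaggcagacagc
Abca4: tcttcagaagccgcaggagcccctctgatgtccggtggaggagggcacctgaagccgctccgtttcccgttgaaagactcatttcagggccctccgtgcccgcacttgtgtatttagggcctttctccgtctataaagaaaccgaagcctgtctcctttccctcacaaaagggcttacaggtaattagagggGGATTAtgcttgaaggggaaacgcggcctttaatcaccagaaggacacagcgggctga

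Kcne2 and Aqp1 each held 1 match to GTTGCC, 109 and 111 bases before the start. Abca4 held 1 match to TAATCC 58 bases before the start, and neither motif was in the Kcnj13 window. TAATCC was found in 3 of the 34 called genes (8.82%) and in 7.21% of 27025 genes with a RefSeq promoter. GTTGCC was found in 6 of 34 (17.6%) and in 11.8%. A match is a description of these letters only.

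Secreted and shed proteins rose in 6 of 15 tested members. Wfdc2, a small protease-inhibitor-like protein of epithelia, measured 5.24, 7.41 and 21.6 scaled FPKM in Ttr-rich and 0, 0.705 and 2.37 in Ttr-poor libraries (log2 difference 2.88, adjusted p = 0.00908). The gene listed as 1500015O10Rik, also called Ecrg4, which encodes a secreted peptide precursor, had the highest Ttr-rich mean of the called genes of this list, at 63.1 ± 27.8 against 10.2 ± 6.54 (SD, n = 8 each; log2 difference 2.59, adjusted p = 0.00513). Igf2, a growth factor released into cerebrospinal fluid, averaged 38.3 ± 11.5 against 13.3 ± 2.08 (log2 difference 1.43, adjusted p = 0.00513), and Igfbp2, which binds it, 60.0 ± 18.2 against 26.2 ± 6.88 (1.21, adjusted p = 0.0115). Igf2 shares exon bases with Igf2as on the other strand. Ace, which encodes angiotensin-converting enzyme, averaged 20.5 ± 5.37 against 8.89 ± 2.47, and Lbp, which binds bacterial lipopolysaccharide, 8.80 ± 2.22 against 2.62 ± 1.41.

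The 9 secreted members that did not pass ran from large differences to none. Enpp2, which encodes autotaxin, the enzyme that makes lysophosphatidic acid, measured 148, 251 and 413 scaled FPKM in Ttr-rich and 43.2, 84.7 and 163 in Ttr-poor libraries, with overlap (log2 difference 1.57, adjusted p = 0.0650). Sostdc1, a BMP antagonist, measured 4.12, 7.76 and 11.8 against 0.131, 1.71 and 3.47, without overlap (2.00, adjusted p = 0.0768). The coagulation factor gene F5 differed by 1.60 (adjusted p = 0.0768), and it shares exon bases with Gm16548 on the other strand. Ctsd, the cathepsin D gene, averaged 356 ± 84.5 against 296 ± 77.9 scaled FPKM (log2 difference 0.31, adjusted p = 0.917). Cp, the gene of the copper carrier ceruloplasmin, differed by 0.21 (adjusted p = 0.917), and it shares exon bases with Hps3 on the other strand. The growth factor genes Bmp6 and Vegfa differed by 0.12 (adjusted p = 0.920) and -0.09 (adjusted p = 0.933), and Vegfa, the third choroid member below 0, was above 0 in several alternative fits. These members were named after their values were seen.

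Junction, keratin, matrix and transcription factor genes rose in 7 of 10 tested members, and 9 more were under the minimum. The paired keratins Krt8 and Krt18 rose by 1.82 and 2.33 on the log2 scale (adjusted p = 0.0222 and 0.00908); both have pseudogene copies that could share reads. Cldn2, a pore-forming claudin of leaky epithelia, averaged 2.65 ± 1.01 against 0.507 ± 0.467 scaled FPKM (SD, n = 8 each; 1.61, adjusted p = 0.0213). The collagen genes Col8a2 and Col9a3 rose by 1.37 and 1.33, and Col9a3 overlaps Tcfl5 on the other strand. The retinol dehydrogenase gene Rdh5 rose by 1.79. Cox8b, a cytochrome oxidase subunit, rose by 2.42 (adjusted p = 0.00555), with 40.8 scaled FPKM at the top of the Ttr-rich set.

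Otx2, the homeodomain factor of choroid plexus identity, did not pass. It measured 0.920, 1.73 and 4.73 scaled FPKM in Ttr-rich, 0.541, 2.18 and 3.69 in middle and 0.0665, 0.651 and 1.77 in Ttr-poor libraries, so that the middle libraries overlapped the whole lower part of the Ttr-rich range (log2 difference 1.03, SE 0.34, adjusted p = 0.550). The middle libraries also had a lower median FPKM sum than the Ttr-rich set, and whether this bears on their Otx2 level was not tested. Col8a1, like Otx2, did not pass (0.96, adjusted p = 0.121).

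The 15 called genes on no list included the largest difference of the 43. Among all genes tested the largest was 4.25, in a gene that did not pass. Defb11, a beta-defensin gene, measured 4.76, 9.62 and 23.9 scaled FPKM in Ttr-rich libraries and was listed at 0 in 5 of 8 Ttr-poor libraries, whose highest value was 2.54 (log2 difference 3.65, adjusted p = 0.00513). It belongs to a multigene family, so its reads are uncertain, and its middle values ran from 0 in 1 library to 5.46 scaled FPKM in another. Gm5480 and 1110059M19Rik, small genes with no role stated here, rose by 2.89 and 2.62. The remaining 12, named after their values were seen, were Wdr86, 2900093L17Rik, Pcolce, Epn3, Ccdc135, Sema3b, Msx1as, Cdkn1c, Tgfbi, Cab39l, Galm and Prkcq.

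These 12 differed in how low they were in the Ttr-poor libraries. The procollagen enhancer gene Pcolce averaged 14.97 ± 7.83 against 4.61 ± 1.88 scaled FPKM (SD, n = 8 each; log2 difference 1.60, adjusted p = 0.0229). Cdkn1c, an imprinted inhibitor of cyclin-dependent kinases, averaged 7.11 ± 1.68 against 3.31 ± 0.862, and the semaphorin gene Sema3b 3.52 ± 1.23 against 1.04 ± 0.263. Prkcq, which encodes protein kinase C theta, had the smallest difference of the 43 (0.44, adjusted p = 0.0318) and yet no overlap, with 5.03 to 7.62 in Ttr-rich and 4.37 to 4.93 in Ttr-poor libraries. Msx1as shares exon bases with Msx1 on the other strand. In placebo replicate 4, 15 of the 43 called genes were under 10% of their Ttr-rich mean, 6 of them listed at 0, and 5 were over 50%. Olfm2, an olfactomedin gene, was the single gene that fell, from 37.6 ± 5.59 to 29.5 ± 5.60 scaled FPKM (log2 difference -0.49, adjusted p = 0.0244), with overlapping sets. Limma called no gene lower when placebo replicate 2, or any of haloperidol replicates 3, 5, 19, 27 and 31, was left out. The same held with values rescaled to a common FPKM sum, and without batch and treatment terms.

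None of the 20 other lists held a gene that passed: limma called 0 of their 215 tested members, and 39 (18.1%) had an unadjusted p under 0.05, beside 5.87% of all genes. Ependymal and cilia genes, from the cells that line the ventricle wall, were above 0 in 19 of 19 tested members with a median of 0.62, which was 0.17 without placebo replicate 2 and 0.15 with haloperidol libraries only. Foxj1, the factor that switches on motile cilia, measured 8.83, 13.6 and 21.3 scaled FPKM in Ttr-rich and 4.22, 7.24 and 16.8 in Ttr-poor libraries, with wide overlap (log2 difference 0.77, adjusted p = 0.413, and 0.46 without placebo replicate 2). The sperm and cilium tektin gene Tekt1 came closest (0.95, adjusted p = 0.0947). The summed ependymal level ran from 139 to 461 in Ttr-rich and from 120 to 446 in Ttr-poor libraries.

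Genes of the other cell types of choroid plexus tissue did not pass either, nor did those of blood-brain barrier endothelium, a separate list. Stromal and meningeal fibroblast genes had a median of 0.23 over 13 tested members, 10 above 0, and of 0.12 without placebo replicate 2. The matrix proteoglycan gene Lum differed by 0.57 (adjusted p = 0.163) and was the 1 gene of the other lists whose sets did not overlap. This is 1 of 215 tested members, beside 47 of 12759 genes tested (0.368%). The gap was narrow, with 1.11 scaled FPKM at the lowest of the Ttr-rich and 1.09 at the highest of the Ttr-poor libraries. Fenestrated vessel genes had a median of 0.02 (2 of 4 above 0), border macrophage genes 0.31 (5 of 6, with 0.01 in batch 2) and blood-brain barrier endothelial genes -0.03 (5 of 12).

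Among striatal and neighbouring neurons, the list of spiny projection neurons, the main striatal neurons, had a median of 0.25 with 15 of 17 above 0, and medians of 0.39 in batch 1 and 0.08 in batch 2. Ppp1r1b, the DARPP-32 gene, averaged 1072 ± 253 against 895 ± 177 scaled FPKM (SD, n = 8 each; log2 difference 0.35, adjusted p = 0.844), and its difference was 0.58 in batch 1 and -0.15 in batch 2. It shares exon bases with 1700003D09Rik on the other strand. Penk, the enkephalin precursor gene, averaged 1077 ± 165 against 863 ± 171 (log2 difference 0.22, adjusted p = 0.917). Cortical excitatory genes were below 0 in 12 of 12 members with a median of -0.46, which was -0.60 in batch 1 and -0.07 in batch 2. Slc17a7, the vesicular glutamate transporter of cortical cells, measured 133, 207 and 291 in Ttr-rich and 184, 262 and 395 in Ttr-poor libraries (log2 difference -0.50, adjusted p = 0.570). Nrn1 differed by -0.46 (adjusted p = 0.292). Of the oligodendrocyte genes 12 of 12 were above 0, at a median of 0.17 (Mbp 0.23, adjusted p = 0.917).

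**Figure D3:**
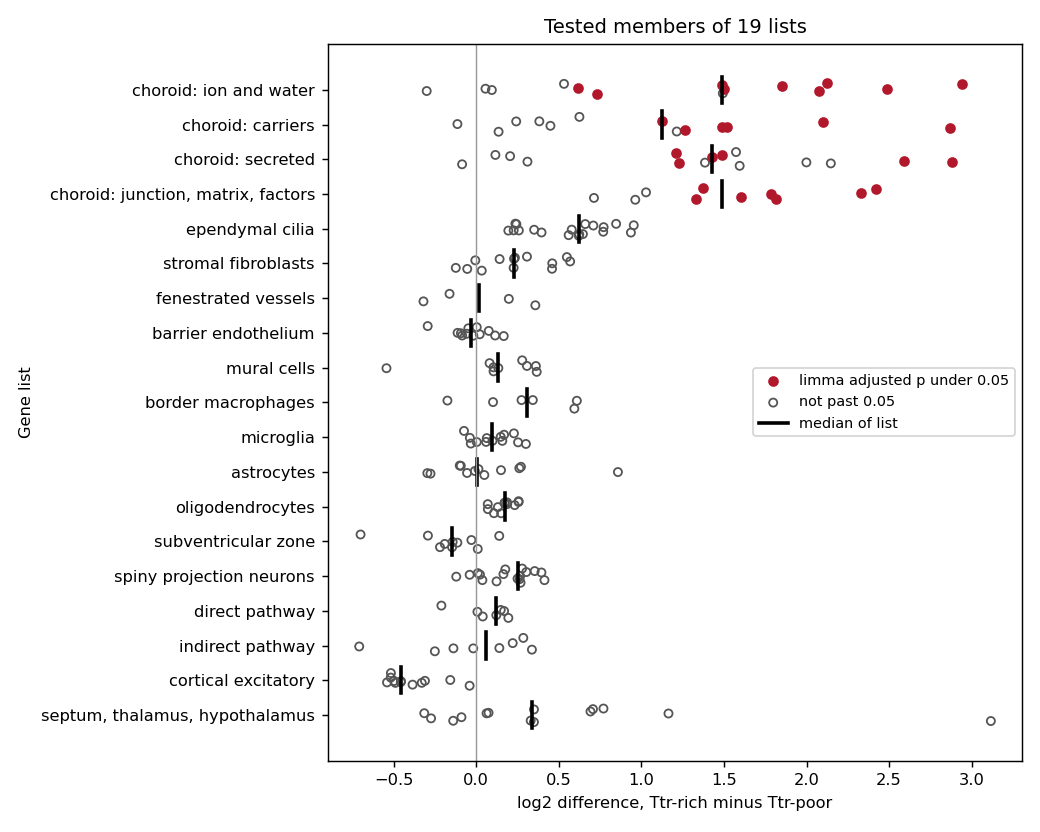
log2 difference (Ttr-rich minus Ttr-poor) of every tested member of 19 lists, filled red where limma's adjusted p was under 0.05, with the median of each list as a black bar. All red points are in the 4 choroid plexus lists, and the ependymal list, with a median of 0.62, has none. The lists were made with earlier results of these data known.

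A slope on log2 Ttr over all 28 libraries, which shares 16 libraries with the comparison of the sets, was positive for 82 genes (0.643% of 12759) and negative for 12 (0.0941%) at an adjusted p under 0.05. It called 37 of the 52 tested choroid members and 42 of the 43 genes called between the sets; the exception was Galm (adjusted p = 0.0717). Kl, Enpp2, Sostdc1, F5, Trpm3, Prlr, Slc31a1, Otx2 and Col8a1, which did not pass between the sets, had a positive slope past the threshold, for instance Kl with an adjusted p of 6.89e-07 and Otx2 with 0.0151. Foxj1, Tekt1 and Slc17a7 did not pass there (0.172, 0.0976 and 0.0931).

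The 12 middle libraries were the only ones that neither set used, and their Ttr spanned 1481 to 2219 FPKM. Limma called 0 genes for the slope there, and 482 (3.78%) had an unadjusted p under 0.05, among them 9 of 52 choroid members, all with a positive slope. Of the 43 genes, 36 had a slope above 0 (50.7% of all genes tested), and of the 52 choroid members 36. The smallest unadjusted p of the genes named above were 0.000351 for Gm5480 and 0.000669 for Slc29a4. The slope on Ttr did not pass a test of difference between haloperidol and placebo for any gene (0 by limma, 113, or 0.886%, at an unadjusted p under 0.05), nor between batches (0, with 443, or 3.47%).

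Choroid members did not keep 1 ratio to each other across libraries, and the ratio moved with the FPKM sum. By its construction this sum is larger in a library whose fragments fall on shorter transcripts. The ratio of Kl to Folr1, both in scaled FPKM, had a lowest, median and highest value of 0.420, 0.750 and 1.01 in the 14 libraries with FPKM sums from 380952 to 460949, and of 0.0957, 0.277 and 0.483 in the 14 with sums from 463138 to 575171. The Ttr-rich library haloperidol replicate 25, with the lowest sum, had 0.834, while the Ttr-rich libraries haloperidol replicate 19 and placebo replicate 2, with sums of 554440 and 556113, had 0.171 and 0.185. Otx2 to Folr1 had medians of 0.228 and 0.0883 in the same groups of 14, with ranges of 0.142 to 0.724 and 0.0168 to 0.207. Enpp2 to Folr1 had medians of 20.04 and 9.60, with widely overlapping ranges of 14.8 to 83.8 and 4.36 to 78.4. The highest Enpp2 ratio of each group was in a Ttr-poor library, placebo replicate 28 and placebo replicate 4. Folr1 was only 0.983 and 0.551 scaled FPKM there. RIN tended to be lower where the sum was larger. It was 8.6 in haloperidol replicate 25, 7.61 in haloperidol replicate 19 and 7.58 in placebo replicate 2. Not every library followed, and haloperidol replicate 33, with a sum of 475902, had a RIN of 8.75. Whether the ratios moved with RIN or with the sum was not tested.

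**Figure D4:**
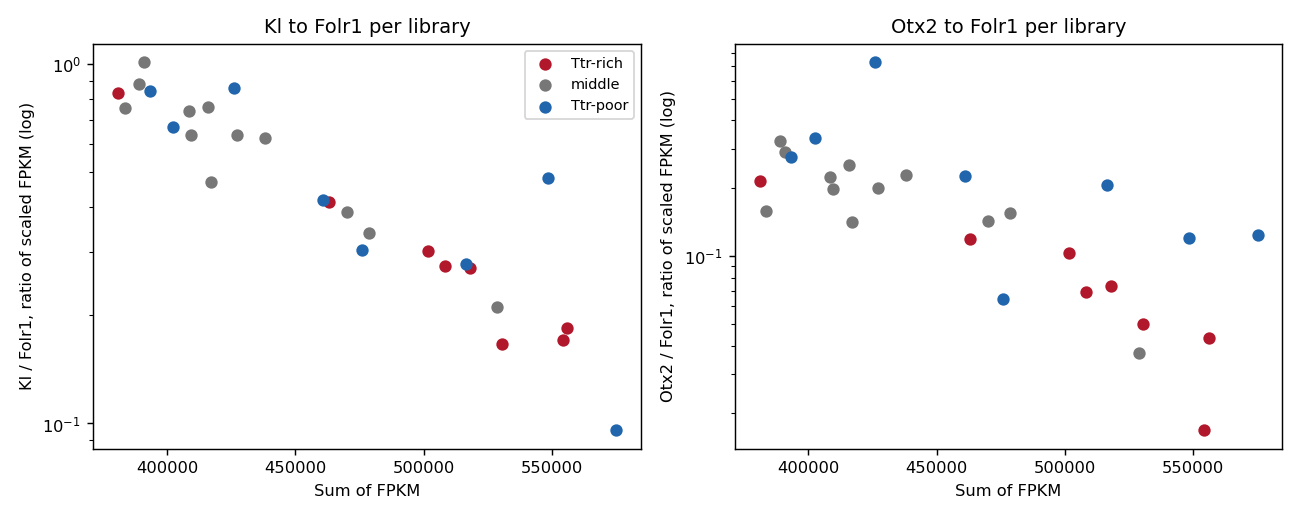
Ratio of Kl to Folr1 (left) and of Otx2 to Folr1 (right) per library, on log axes, against the sum of FPKM, coloured by set. The lower ratios lie at the larger sums, from a Kl to Folr1 ratio of 1.01 down to 0.0957, with placebo replicate 4 at 0.483 above its neighbours.

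With the log2 FPKM sum added as a term, limma called 124 genes higher (0.972%) and 113 lower (0.886%), 237 in all (1.86%). All 28 choroid calls were kept and 11 were gained, so that 39 of 52 tested choroid members rose. The 11 were Kl, Enpp2, Sostdc1, F5, Otx2, Prlr, Trpm3, Car12, Col8a1, Slc31a1 and Spint2, named after their values were seen. Kl then differed by 2.52 (adjusted p = 0.000963), Enpp2 by 1.85 (0.000557) and Otx2 by 1.30 (0.00747). The median length of the main transcript was 3716 bases for the 11 gained members, 2165 bases for the 28 called without the term and 2755 bases for all genes tested. The part of transcript length in these differences was not tested. In the same fit the ependymal median was 0.36 and Foxj1 did not pass (adjusted p = 0.105), while Tekt1 (log2 difference 0.79, adjusted p = 0.00996) and Lum (0.58, adjusted p = 0.0464) did, so that 2 of 215 members of the other lists rose. Another 2 fell, the proteoglycan gene Cspg5 (-0.18, adjusted p = 0.0464) and the cortical factor gene Emx1 (-0.63, adjusted p = 0.0177).

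Haloperidol and Ttr were not evenly spread, with a median Ttr of 2064 FPKM in the 16 haloperidol and 1668 FPKM in the 12 placebo libraries. The treatments were therefore compared over all 28 libraries, with batch as a term, without and with log2 Ttr, a comparison added after the data were seen. The median log2 difference (haloperidol minus placebo) of the 52 tested choroid members was 0.26 without and 0.05 with log2 Ttr. Limma called 0 of the 52 in either fit, with 4 and 1 of them at an unadjusted p under 0.05, beside 819 (6.42%) and 855 (6.7%) of all genes. Folr1 differed by 0.82 (SE 0.49, adjusted p = 0.568) without and 0.29 (SE 0.15, adjusted p = 0.518) with log2 Ttr. Kcnj13 differed by 0.28 (adjusted p = 0.750) and -0.27 (adjusted p = 0.518). Anxa3, an annexin gene on no list, was the 1 gene called in each fit (0.00784%), with a log2 difference of 0.58 (adjusted p = 0.0180) and 0.57 (adjusted p = 0.0434). Penk did not pass in either, with 0.57 (adjusted p = 0.0912) and 0.54 (adjusted p = 0.143).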

How the data were processed

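Striatal RNA of 28 mice was sequenced from TruSeq libraries, per the labels' protocols. The deposited values are FPKM of 30563 RefSeq transcripts, made by the authors with TopHat2 2.0.6, Cufflinks and mm9, per the submitters' processing notes. Use of strand in quantification is not stated in those sources. The deposited coverage and FPKM intervals served for relative depth (coverage over FPKM) and for the check of Ttr.

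Transcript FPKM was summed per gene symbol, then divided by each library's median ratio to the geometric mean of 14492 genes (scaled FPKM). Genes averaging 1 FPKM or more were tested with limma 3.58.1 under R 4.3.3, with a mean-variance trend, on log2(scaled FPKM + 0.5). Tests were 2-sided, with Benjamini-Hochberg adjustment and a threshold of 0.05, and were tried on simulated data. Library measures used exact permutation tests in Python 3.11.15. Each library is 1 mouse.

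The libraries and the 24 gene lists were chosen with earlier results of these data known. The genes to name were the tested choroid plexus members, the 12 largest called differences in each direction, up to 4 smallest p of every other list, the 5 smallest p of each further slope test, and 21 genes set by name. Not every gene so selected is described. Alternatives covered the pseudocount, filter, scaling, covariates, ranking, set size, weights, batches and single libraries.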

Additional observations from a re-analysis of the deposited data

Results flagged for a closer look

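In each set of 8 libraries, the highest and lowest value of 73 named genes were compared with the next value. A library counts as standing apart where its gap to the next, over the range of its set, exceeds Dixon's 95% critical value. For normally distributed values this happens by chance in about 1 in 20 sets, and 17 values did so in 146 sets. The values were not log-transformed and the sets reuse the same libraries, so 1 in 20 is no baseline for the 17. All are in scaled FPKM, and all were the highest of their set.

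In the Ttr-rich set, haloperidol replicate 25, the library with the lowest FPKM sum, stood apart for Kl (18.3, next 10.6), Enpp2 (413, next 271), Trpm3 (10.6, next 6.63), Col8a1 (2.97, next 1.83), Slc4a10 (33.6, next 15.8) and Vegfa (23.2, next 15.2). Placebo replicate 2 stood apart for Steap1 (8.17, next 5.06), Krt8 (7.06, next 3.93), Gm5480 (18.03, next 7.46) and 2900093L17Rik (9.48, next 4.69). Haloperidol replicate 19 stood apart for Wdr86 (5.74, next 3.03).

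In the Ttr-poor set, haloperidol replicate 17 stood apart for Kl (5.38, next 2.35) and Prlr (1.39, next 0.608), and haloperidol replicate 33 for Cox8b (6.42, next 3.70). Haloperidol replicate 3, with a Ttr of 146 FPKM, stood apart for the cilia genes Foxj1 (16.8, next 8.83) and Tekt1 (5.24, next 3.10). Placebo replicate 20 stood apart for the striatal gene Ppp1r1b (1274, next 957).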

How the results depend on the processing

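The 44 calls between the sets became 110 with array weights, 237 with the log2 FPKM sum added and 19 with a minimum mean FPKM of 5. With RIN added they became 61. They became 0 in batch 1 alone, 1 in batch 2 alone, and, in 2 alternatives chosen after seeing the data, 0 with haloperidol libraries only and 0 by limma (197 at an unadjusted p under 0.05) once libraries whose FPKM sum exceeded 540000 were dropped. Leaving out 1 library gave from 0 (placebo replicate 2) to 55 calls. The 28 choroid members called became 15 at the higher minimum, where 28 were tested, and 0 in each batch, with haloperidol libraries only and without the largest FPKM sums. With RIN added they became 35. Enpp2 (limma adjusted p = 0.00110), F5 (0.00231) and Col8a1 (0.00382) passed in that fit, and Otx2 (0.166) did not. Leaving out 1 library gave from 0 to 35 choroid calls, with 18 without haloperidol replicate 5. The choroid median stayed between 0.84 (batch 2) and 1.78 (the 6 highest against the 6 lowest) in all settings run.

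The 94 calls of the slope over 28 libraries became 539 with the FPKM sum added, 34 at the higher minimum, 56 in batch 1 and 31 in batch 2. The slope in the middle libraries called 0 genes in every alternative run, leave-one-out included, and both tests of a difference in slope called 0 in their alternatives. The RIN difference between the sets was -0.27 in batch 2 and the log2 depth difference -0.37 in batch 1, against the pooled direction. Of 73 named genes, 4 turned direction, none of them called between the sets: in batch 2 Ppp1r1b (-0.15), Slc4a10 (0.20), Lrp8 (0.20) and Vegfa (0.0911), and with the FPKM sum added Slc4a10 (0.0218) and Vegfa (0.129). Vegfa also turned with the 6 highest against the 6 lowest (0.000846), RIN added (0.0021), haloperidol libraries only (0.0206) and the largest FPKM sums dropped (0.0498), and leaving out 1 library gave from -0.174 to 0.050, the latter without haloperidol replicate 17. The cause of these changes was not tested. No paired analysis was possible because mouse numbers are unique across the groups. Absolute depth is unknown, so no counting error could be given for low FPKM.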

Other observations

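Ace was divided between 2 deposited transcripts whose set means did not follow the same order. NM_009598 averaged 5.89 ± 2.48 scaled FPKM in Ttr-poor (SD, n = 8), 6.13 ± 2.68 in middle (n = 12) and 15.4 ± 6.75 in Ttr-rich libraries (n = 8). NM_207624 averaged 3.002 ± 2.34, 6.32 ± 2.42 and 5.08 ± 4.07. The division of a gene's reads between transcripts is a Cufflinks estimate, and the difference between the 2 was not tested.

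Oxt, the oxytocin precursor gene of hypothalamic neurons, had the largest difference among genes of the other lists and did not pass, except with array weights (adjusted p = 0.0447). It measured 1.096, 25.7 and 128 scaled FPKM at the lowest, median and highest of the Ttr-rich, and 0.282, 4.12 and 13.2 of the Ttr-poor libraries (log2 difference 3.12, SE 0.90, adjusted p = 0.383). The middle library placebo replicate 10 had 100.3. The log2 difference was 4.18 in batch 1 and 0.10 in batch 2.

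Ribosomal protein genes were above 0 in 81 of 81 tested members with a median of 0.25, none called, and the median was 0.11 without placebo replicate 2, 0.05 with haloperidol libraries only, -0.04 within batch 2 and -0.03 with the FPKM sum added.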
